A study of Mus musculus with 13 samples.

Results

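The genes described here are 10 lymphocyte genes measured in mouse lung, chosen by symbol from a table of 32544 gene symbols. Of these, 6 are T cell genes (Cd3e, Cd3d, Cd3g, Cd4, Cd8a and Lck) and 4 are cytotoxic and natural killer (NK) cell genes (Nkg7, Gzma, Prf1 and Il2rb). The comparison asks how their transcripts differed between whole lungs of wild-type male C57BL/6J mice kept at 21% O2 (Normoxia, n = 7) or at 80% O2 (Hyperoxia, n = 6), each for 5 days. The mice were 7 weeks old on purchase and older when used, carried no transgene or deletion, and had their lungs perfused with cold buffer before freezing. Each library was made from lung RNA by Quant-seq, which counts reads at the 3′ ends of polyadenylated transcripts.

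T cells recognise antigen through the T cell receptor, whose variable chains signal through the CD3 subunits, and the kinase Lck phosphorylates these subunits. Cd4 and Cd8a encode co-receptors that divide T cells into helper and cytotoxic lineages, and developing T cells lose one of them in the thymus. Cytotoxic T cells and NK cells kill targets by releasing granules that hold perforin and granzymes. The lung holds both cell types in its capillaries, tissue and airways.

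Total counts ran from 1607111 to 3387736 in the normoxic libraries (median 2968462) and from 2029006 to 4540288 in the hyperoxic ones (median 3200654.5). Levels are given as CPM (counts per 1e+06 counts of the library), scaled by the trimmed mean of M values (TMM). A count of 3, taken as the floor below which a level cannot be told from 0, corresponded to 0.831 to 1.83 CPM in the normoxic and 0.652 to 1.6 CPM in the hyperoxic libraries, and this covers counting error only. Hyperoxia replicate 1 stood apart, with correlations of 0.721 to 0.833 with the other libraries, against 0.854 to 0.967 among those 12. Lung markers were present in all 13 libraries, although all 4 markers checked were lower in Hyperoxia replicate 1 than in any of the other 12. The surfactant genes Sftpc and Sftpb were at 32.6 and 26.7 CPM in this library, against 663 to 13500 and 140 to 740 CPM in the others. The club cell gene Scgb1a1 was at 161 CPM against 2760 to 51200 CPM, and the alveolar type 1 gene Ager at 270 CPM against 363 to 823 CPM. Results whose calls change without this library are therefore given with and without it. The library names fall into an earlier and a later set of letters: B to M holds Normoxia replicates 1 to 5 and Hyperoxia replicates 1 to 3, and O to S holds the remaining 5 libraries. The labels do not say what the letters mark, so for the members values within a set are given beside the pooled value where they differ in call. The genes of the other lists were not fitted within the sets.

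The promoters of 4 members whose transcripts were lower in hyperoxia are shown because they are the DNA just upstream of the genes whose levels are compared. Cd3d and Cd3g are divergent neighbours on chromosome 9, and their starts lie 1355 bp apart. Cd3e is the third gene of this cluster, and the whole cluster spans 40056 bp. Each sequence below is the 250 bases before the gene's start, read 5′ to 3′ on the gene's own strand (RefSeq, GRCm38.p6). They lie at chr9:44981536-44981785 (plus strand) for Cd3d, chr9:44980432-44980681 (minus strand) for Cd3g, chr6:71373177-71373426 (plus strand) for Cd8a and chr13:113100982-113101231 (minus strand) for Gzma. Capitals mark matches on either strand to AGGAAG (bound by ETS factors), TGTGGT (bound by RUNX factors) or CAGNTG (an E-box form).
Cd3d: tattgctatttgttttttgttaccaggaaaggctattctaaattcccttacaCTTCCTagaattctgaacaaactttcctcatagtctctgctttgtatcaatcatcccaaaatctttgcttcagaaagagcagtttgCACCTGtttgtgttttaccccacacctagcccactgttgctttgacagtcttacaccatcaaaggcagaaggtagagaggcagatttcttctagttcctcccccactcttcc
Cd3g: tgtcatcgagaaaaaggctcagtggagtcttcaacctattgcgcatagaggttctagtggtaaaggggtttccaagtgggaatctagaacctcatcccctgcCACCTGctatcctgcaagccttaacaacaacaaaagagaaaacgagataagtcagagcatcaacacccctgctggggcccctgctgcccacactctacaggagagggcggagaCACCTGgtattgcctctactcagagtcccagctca
Cd8a: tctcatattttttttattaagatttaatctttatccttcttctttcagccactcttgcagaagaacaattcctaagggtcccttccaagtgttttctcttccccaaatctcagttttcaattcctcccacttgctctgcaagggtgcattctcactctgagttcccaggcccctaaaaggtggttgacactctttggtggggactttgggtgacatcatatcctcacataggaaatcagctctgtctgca
Gzma: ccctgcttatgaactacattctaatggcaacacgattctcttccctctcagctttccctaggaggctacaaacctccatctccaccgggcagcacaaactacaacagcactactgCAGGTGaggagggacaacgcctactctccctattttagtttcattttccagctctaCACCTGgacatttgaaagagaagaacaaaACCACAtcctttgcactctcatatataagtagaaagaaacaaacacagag

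Among 32851 mouse promoters of 250 bases, 29.5% held AGGAAG, 14% held TGTGGT and 44.8% held CAGNTG. The Cd3d window held 1 match to AGGAAG and 1 to CAGNTG, and the Cd3g window held 2 to CAGNTG. The Gzma window held 1 match to TGTGGT and 2 to CAGNTG, while the Cd8a window held no match to any of the 3 motifs. These matches are letters in a window and were not tested as binding sites. RefSeq entries were found for 8 of the 10 members, and none was found for Cd4 and Il2rb.

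Transcripts of Cd3d, Cd3g, Cd8a, Gzma and Nkg7 were lower in the hyperoxic lung, whereas Cd3e, Cd4, Lck, Prf1 and Il2rb did not pass the test. The first test, an edgeR quasi-likelihood fit of the genes that passed the filter on low counts, covered Cd3d, Cd8a and Gzma and called each of the 3 lower at an adjusted p under 0.05. In that fit 10.8% of 12496 genes were called lower and 11.8% higher. Cd8a and Gzma passed the filter through the normoxic libraries, so that count is no support for the list. All 10 members entered a second fit with no filter, in which 5 of 10 were lower (3 of 6 T cell genes and 2 of 4 cytotoxic genes) and 0 were higher, against 6.04% lower among 19718 genes. No member was higher at an unadjusted p under 0.05, or in the tests by DESeq2, limma-voom or limma on log values of the members that passed the filter. The median log2 fold change of the 10 members in this fit was −1.52, compared with −0.05 over all genes with a count. In bulk tissue, fewer cells of a type and less RNA per cell cannot be told apart.

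**Figure D1:**
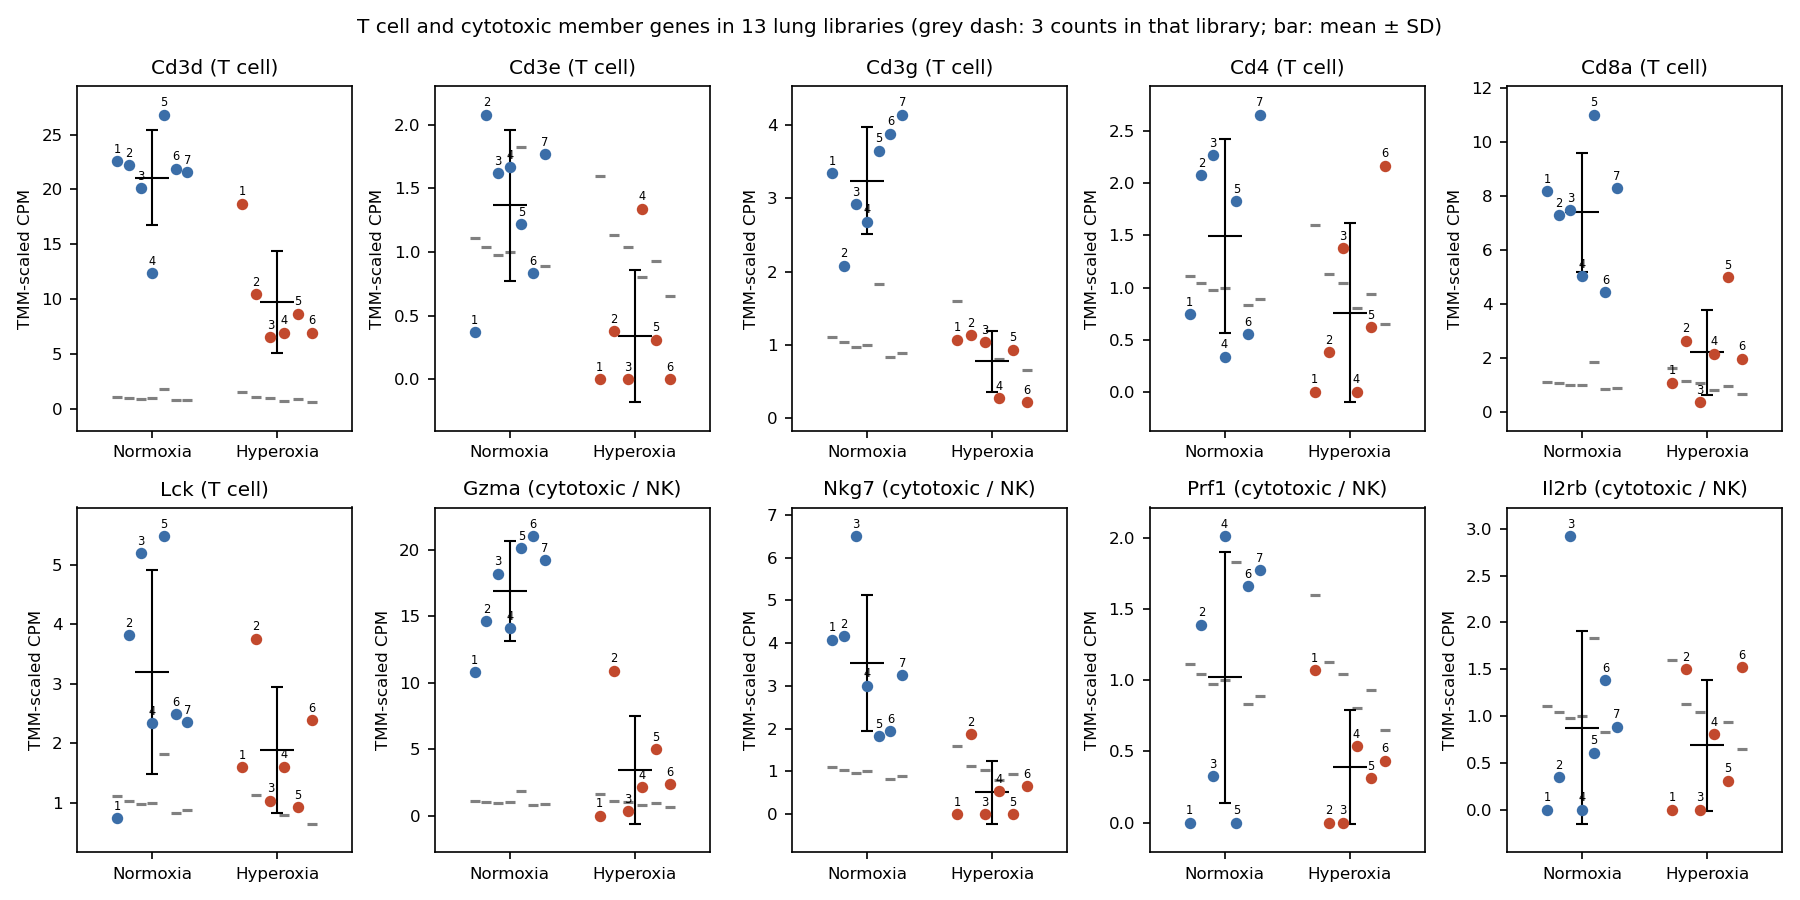
Level of each member gene in each library, in TMM-scaled CPM on linear axes that differ between panels. Points are libraries labelled by replicate number (7 normoxic, 6 hyperoxic), bars are the mean ± SD, and grey dashes mark the level of 3 counts in that library. Cd3g is the member whose groups do not overlap, with all 6 hyperoxic libraries at or under 3 counts. The points of Cd4 and Il2rb lie on both sides of the dashes in both groups, and all 6 hyperoxic points of Prf1 lie below them.

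Cd3d encodes the CD3 delta chain, which pairs with CD3 epsilon in the receptor complex (chr9:44981786-44987339, plus strand, GRCm38). It was the only member above 10 counts in every library. The level of Cd3d ran from 12.4 CPM through a median of 21.9 to 26.8 CPM in normoxia, and from 6.57 through 7.84 to 18.7 CPM in hyperoxia. The groups overlapped through Normoxia replicate 4 and Hyperoxia replicate 1, the lowest and the highest of their groups, and 5 of 6 hyperoxic libraries lay below every normoxic library. The mean of Cd3d was 21.1 CPM ± 4.36 (SD, n = 7) in normoxia against 9.74 CPM ± 4.63 (SD, n = 6) in hyperoxia. Its log2 fold change was −1.14 (SE 0.26, adjusted p = 0.00544, edgeR), and the two-sided exact permutation test of the CPM difference gave p = 0.0035 (0.0714 within libraries B to M). Without Hyperoxia replicate 1 the Cd3d log2 fold change was −1.39 (edgeR adjusted p = 0.000156). Within libraries B to M it was −0.76 (edgeR adjusted p = 0.248), and within O to S it was −1.54 (edgeR adjusted p = 0.00599).

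Cd3g, which encodes the CD3 gamma chain, lies on the opposite strand beside Cd3d (chr9:44969572-44980431, minus strand). Its counts ran from 6 to 14 (median 9) in normoxia and from 1 to 3 (median 2.5) in hyperoxia, so that all 6 hyperoxic libraries were at or under the floor. The groups did not overlap, and 5.19% of the genes of the filtered fit were lower without overlap. The Cd3g level was 3.24 CPM ± 0.724 (SD, n = 7) in normoxia against 0.775 CPM ± 0.418 (SD, n = 6) in hyperoxia, with an exact permutation p of 0.00117. Cd3g did not pass the filter, and the fit without a filter gave a log2 fold change of −2.07 (SE 0.47, edgeR adjusted p = 0.00545), a size that depends on counts near 0. Leaving out any 1 library kept this call, with log2 fold changes of −2.21 to −1.82.

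Cd3e encodes the CD3 epsilon chain (chr9:44998740-45009627, minus strand), and its annotation overlaps Gm48720 on the same strand and Gm48719 on the other, so its few reads could be shared. The counts of Cd3e ran from 1 to 6 in normoxia and from 0 to 5 in hyperoxia, where the median was 0.5 and 3 libraries were at 0. At 1.37 CPM ± 0.597 (SD, n = 7) against 0.338 CPM ± 0.519 (SD, n = 6), its exact permutation p was 0.014 (0.0536 within libraries B to M), while the fit without a filter gave −1.79 (SE 0.74, edgeR adjusted p = 0.125). Hyperoxia replicate 4, with 5 counts, was the library that set this apart, since the edgeR adjusted p without it was 0.0244 with a log2 fold change of −2.97. The 3 CD3 genes thus shared a negative sign but differed in call, and Cd3e and Cd3g lay near the floor.

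Cd8a encodes the alpha chain of the CD8 co-receptor (chr6:71373427-71379173, plus strand). It ran from 4.43 CPM through a median of 7.47 to 11 CPM in normoxia and from 0.346 through 2.05 to 4.98 CPM in hyperoxia. Of the 6 hyperoxic libraries, 5 lay below every normoxic library, and Hyperoxia replicate 5 lay above Normoxia replicate 6. The Cd8a mean was 7.38 CPM ± 2.18 (SD, n = 7) in normoxia against 2.19 CPM ± 1.59 (SD, n = 6) in hyperoxia. The log2 fold change was −1.69 (SE 0.4, edgeR adjusted p = 0.007), and the exact permutation p was 0.00233. Without Hyperoxia replicate 1 it was −1.56 (edgeR adjusted p = 0.00803). For Cd8a the order of the letter sets was the opposite of that of Cd3d, with −2.43 within B to M (edgeR adjusted p = 0.0298) and −1.11 within O to S (edgeR adjusted p = 0.169).

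Cd4 encodes the co-receptor of helper T cells and is also made by some myeloid cells (chr6:124864692-124888221, minus strand). Its counts ran from 1 to 9 in normoxia and from 0 to 10 in hyperoxia, and the groups overlapped. Cd4 was at or under the floor in 4 libraries of each group, at 1.5 CPM ± 0.933 (SD, n = 7) and 0.759 CPM ± 0.862 (SD, n = 6). A difference was not detectable at this depth, with an exact permutation p of 0.167 and a log2 fold change of −0.79 in the fit without a filter (edgeR adjusted p = 0.475). Leaving out any 1 library gave Cd4 log2 fold changes of −1.48 to −0.51, with a smallest edgeR adjusted p of 0.249. The difference between the fold changes of Cd8a and Cd4 was not tested.

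Lck, the kinase that phosphorylates the CD3 chains (chr4:129548344-129573641, minus strand), had 2 to 16 counts in normoxia and 3 to 11 in hyperoxia. Its groups overlapped over most of their range. The level of Lck was 3.21 CPM ± 1.71 (SD, n = 7) in normoxia against 1.89 CPM ± 1.05 (SD, n = 6) in hyperoxia, with an exact permutation p of 0.137. Without Normoxia replicate 1, the lowest normoxic library, the exact permutation p was 0.039. The fit with no filter gave a log2 fold change of −0.69 (edgeR adjusted p = 0.363), and Mir8119 lies within the gene on the same strand.

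Gzma encodes granzyme A, a serine protease stored in cytotoxic granules (chr13:113093825-113100981, minus strand). Its level ran from 10.8 CPM through a median of 18.2 to 21.0 CPM in normoxia, and from 0 through 2.27 to 10.9 CPM in hyperoxia. Of the hyperoxic libraries, 5 of 6 lay below every normoxic library, and Hyperoxia replicate 2 lay just above the lowest normoxic library. The Gzma mean was 16.9 CPM ± 3.78 (SD, n = 7) in normoxia against 3.46 CPM ± 4.06 (SD, n = 6) in hyperoxia, so that the hyperoxic libraries spread as widely as their mean. The log2 fold change was −2.26 (SE 0.53, edgeR adjusted p = 0.00615), with an exact permutation p of 0.00117. Hyperoxia replicate 1 held 0 counts of Gzma, and without it the log2 fold change was −2.05 (edgeR adjusted p = 0.0027). Without Hyperoxia replicate 2 it was −2.95 (edgeR adjusted p = 0.000553). Within B to M, which holds both of these libraries, it was −1.96 (edgeR adjusted p = 0.172), and within O to S it was −2.7 (edgeR adjusted p = 0.00306).

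Nkg7, a membrane protein of cytotoxic granules in NK cells and T cells (chr7:43437073-43438249, plus strand), had 3 to 20 counts (median 11) in normoxia and 0 to 5 (median 1) in hyperoxia. It was at 0 in 3 hyperoxic libraries and at or under the floor in 5 of 6. The highest hyperoxic library, replicate 2 with 1.88 CPM, lay just above the lowest normoxic library with 1.83 CPM. The Nkg7 mean was 3.54 CPM ± 1.6 (SD, n = 7) in normoxia against 0.511 CPM ± 0.732 (SD, n = 6) in hyperoxia, with an exact permutation p of 0.00291. In the fit without a filter its log2 fold change was −2.65 (SE 0.64, edgeR adjusted p = 0.00833), and leaving out any 1 library kept the call with −3.41 to −2.4. Within libraries B to M alone it was −2.48 (edgeR adjusted p = 0.11), and the exact permutation p was 0.0536.

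Prf1, which encodes the pore-forming protein perforin (chr10:61297833-61304680, plus strand), was at or under the floor in 3 normoxic and in all 6 hyperoxic libraries. Its counts ran from 0 to 6 and from 0 to 2, and its level was 1.02 CPM ± 0.881 (SD, n = 7) against 0.392 CPM ± 0.398 (SD, n = 6). The exact permutation p of Prf1 was 0.138, and the edgeR adjusted p without a filter was 0.297 for a log2 fold change of −1.39. Il2rb, the beta chain of the interleukin 2 and interleukin 15 receptors (chr15:78479256-78495271, minus strand), had 0 to 9 counts in normoxia and 0 to 7 in hyperoxia. Its median was 0.609 CPM in normoxia and 0.557 CPM in hyperoxia, and its mean was 0.879 CPM ± 1.03 (SD, n = 7) against 0.69 CPM ± 0.702 (SD, n = 6), with an exact permutation p of 0.74. The sign of Il2rb rested on Normoxia replicate 3, since its log2 fold change was −0.26 with this library and 0.39 without it (edgeR adjusted p = 0.869 and 0.808). No difference was detectable for Prf1 and Il2rb at this depth.

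**Figure D2:**
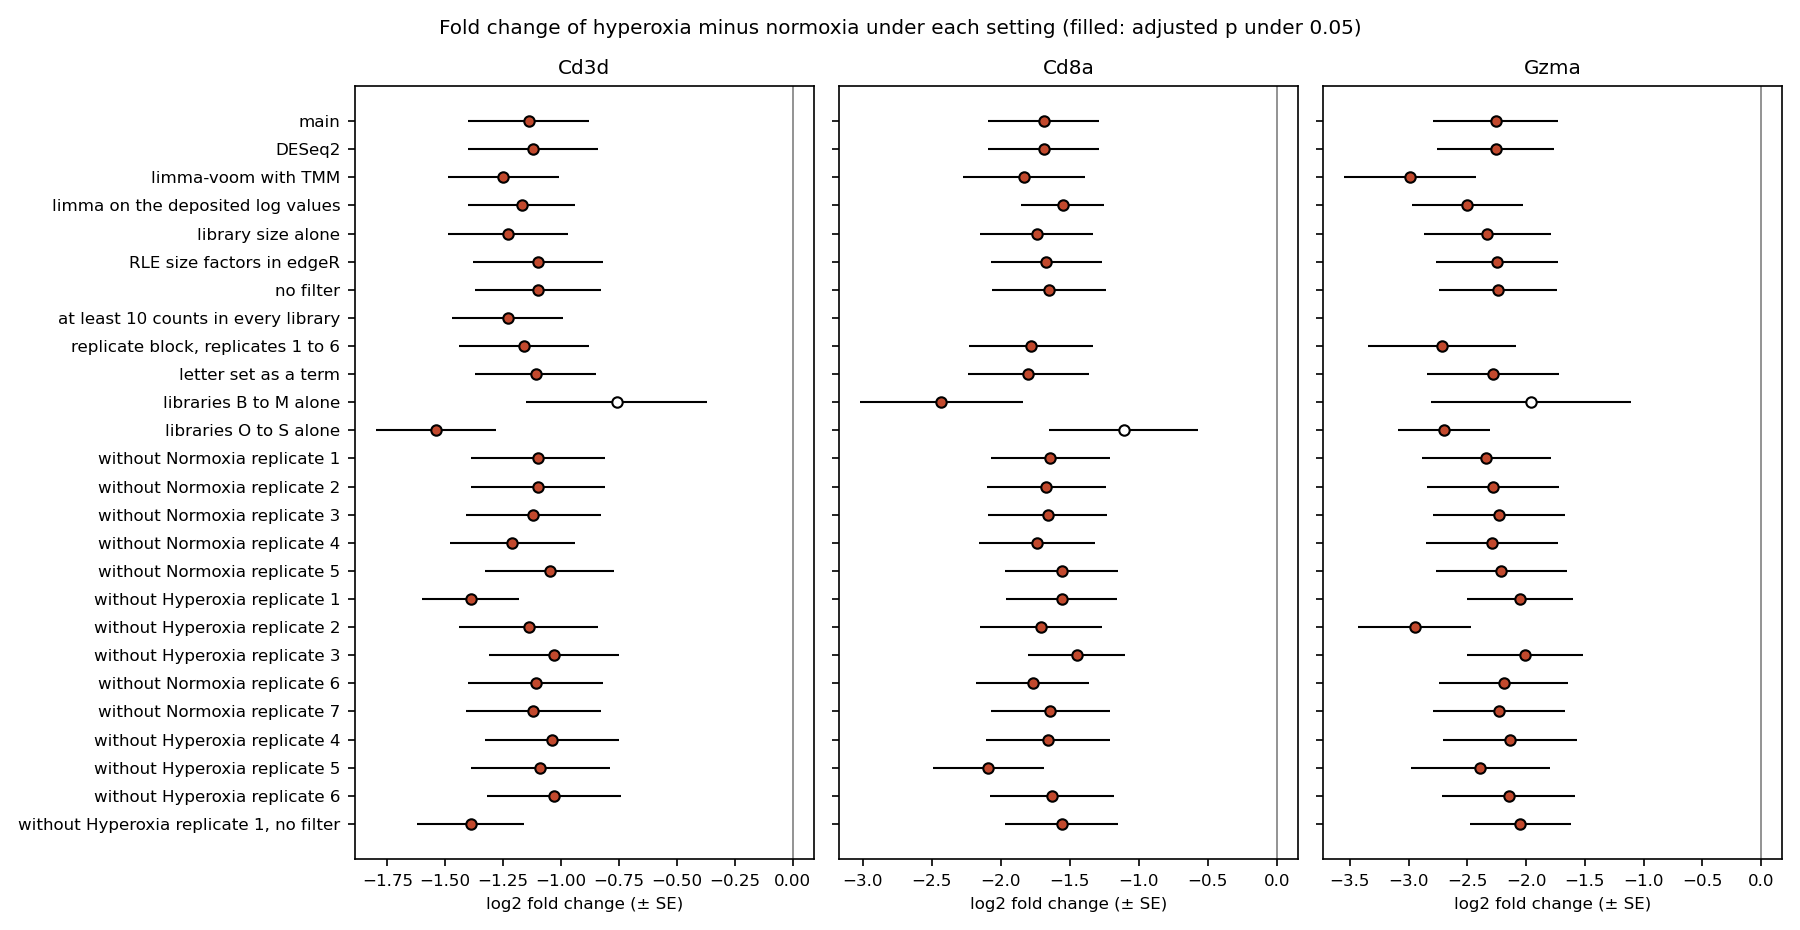
Log2 fold change ± SE of Cd3d, Cd8a and Gzma (hyperoxia minus normoxia) under each processing setting, with filled points for an adjusted p under 0.05 and axes that differ between panels. Every value is below 0. Open points mark libraries B to M alone for Cd3d and Gzma and libraries O to S alone for Cd8a, and a setting with no point did not test the gene.

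Summed over the 6 T cell members, the level ran from 24.4 through 39.6 to 49.9 CPM in normoxia and from 10.4 through 15.1 to 22.4 CPM in hyperoxia. The highest hyperoxic sum was that of Hyperoxia replicate 1. Over the 4 cytotoxic members it ran from 14.8 through 22.5 to 27.9 CPM in normoxia and from 0.346 through 4.51 to 14.3 CPM in hyperoxia, with Hyperoxia replicate 2 the highest. Neither sum overlapped between the groups, but the nearest libraries were close (24.4 against 22.4 CPM, and 14.8 against 14.3 CPM). Cd3d gave the largest part of the first sum and Gzma of the second.

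Ptprc, which encodes the pan-leukocyte surface protein CD45, was also lower in hyperoxia, at 215 CPM ± 71.8 (SD, n = 7) against 110 CPM ± 34.4 (SD, n = 6), with a log2 fold change of −0.98 (SE 0.23, edgeR adjusted p = 0.00691). The members were therefore also set against other leukocyte counts of the same library. T cell member counts per 100 Ptprc counts ran from 10.2 through 20.4 to 31.9 in normoxia and from 11.2 through 13.1 to 27 in hyperoxia, so that the groups overlapped. Cytotoxic member counts per 100 Ptprc counts ran from 7.81 through 9.3 to 17.8 in normoxia and from 0.413 through 4.12 to 20.5 in hyperoxia. For this ratio 5 of 6 hyperoxic libraries lay below every normoxic library and Hyperoxia replicate 2 lay above all of them. Gzma counts per 100 Cd3d counts ran from 47.5 through 89 to 114 in normoxia and from 0 through 32.6 to 104 in hyperoxia, and 4 of 6 hyperoxic libraries lay below every normoxic library. Cd8a counts per 100 Cd3d counts overlapped, at 20.3 to 40.9 in normoxia and 5.26 to 57.1 in hyperoxia.

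Against B cell genes the ratios below went in different directions, but they differ in both the T cell and the B cell genes used. Counts of the 6 T cell members per 100 counts of a list of 10 B cell genes ran from 6.22 through 9.11 to 12.9 in normoxia and from 3.68 through 6.78 to 7.63 in hyperoxia, with 1 of 6 hyperoxic libraries below every normoxic library. Per 100 counts of a list of 12 pan-leukocyte genes they ran from 4.25 through 5.54 to 8.54 and from 3.43 through 4.28 to 6.97, with 3 of 6 below. For Cd3d against the B cell receptor genes Cd79a and Cd79b the order was the other way. Cd3d counts per 100 counts of these genes ran from 24.5 through 39.2 to 46.2 in normoxia and from 51.9 through 64.3 to 87.5 in hyperoxia, with all 6 hyperoxic libraries above every normoxic one. This ratio was chosen after its values were seen and is given with no test. In the list of 10 B cell genes Ebf1 held the most counts. Its log2 fold change was −0.57, against −1.8 for Cd79a and −2.28 for Cd79b.

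**Figure D3:**
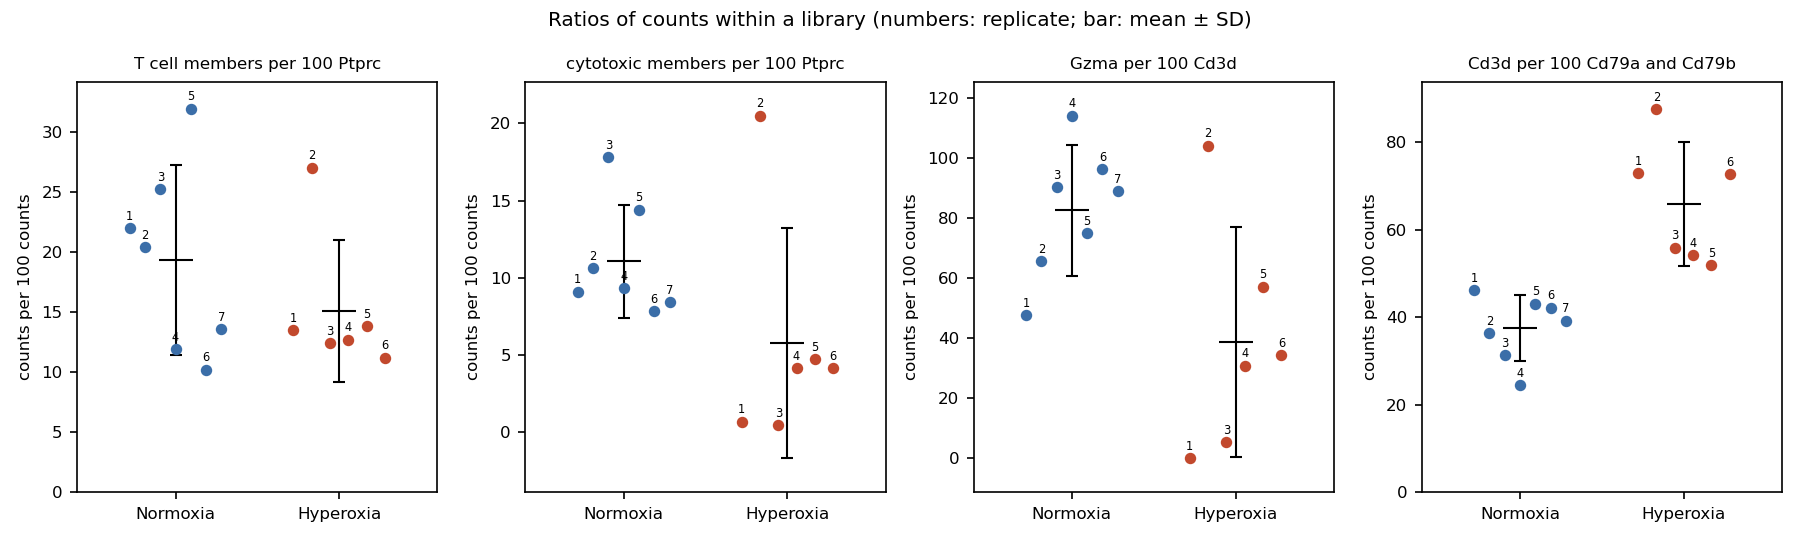
Counts of member genes per 100 counts of another gene or gene pair in the same library, with points labelled by replicate number and bars for the mean ± SD. The ratio of T cell members to Ptprc overlaps between the groups, Hyperoxia replicate 2 is the highest hyperoxic point in each panel, and Cd3d per 100 Cd79a and Cd79b counts is at most 46.2 in normoxia and at least 51.9 in hyperoxia.

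Other genes of the T cell receptor complex and its signalling were counted in a list of 31 genes, of which 18 passed the filter. Of these, 10 were lower, 0 were higher and 8 did not pass the test, with a median log2 fold change of −0.99, compared with −0.03 over all genes tested. At an unadjusted p under 0.05, 12 of the 18 were lower and 0 higher, and 10 or 11 were lower and 0 higher by DESeq2, limma-voom and limma on log values. Some of these genes, such as Trbc1, passed the filter through the normoxic libraries. In the fit without a filter, which held all 31 genes, 12 were lower and 0 higher, with a median log2 fold change of −1. Without Hyperoxia replicate 1 the filtered list had 13 lower and 0 higher of 19 tested, against 1699 lower and 1934 higher of all 12752 genes. The genes with the smallest adjusted p were Trbc1, Cd2 and Trbc2. Trbc1 and Trbc2 encode near-identical constant regions of the receptor beta chain, so that reads may be split between them and their separate values are uncertain. Trbc1 was 5.8 CPM ± 1.29 (SD, n = 7) in normoxia against 0.752 CPM ± 0.566 (SD, n = 6) in hyperoxia, with no overlap and a log2 fold change of −2.84 (SE 0.41, edgeR adjusted p = 0.000147). Trbc2 was 10.9 CPM ± 3.29 against 2.17 CPM ± 2.21, with a log2 fold change of −2.45 (SE 0.47, edgeR adjusted p = 0.00139). Cd2, an adhesion receptor of T cells and NK cells, was 9.71 CPM ± 4.17 against 2.72 CPM ± 0.943, with no overlap and a log2 fold change of −1.78 (SE 0.33, edgeR adjusted p = 0.00119).

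Among the other defining genes of this list, Cd8b1, the beta chain of CD8, fell from 8.71 CPM ± 2.42 (SD, n = 7) at 21% O2 to 3.44 CPM ± 0.988 (SD, n = 6) at 80% O2 without overlap, a log2 fold change of −1.33 (SE 0.27, edgeR adjusted p = 0.00203). Trac, the constant region of the receptor alpha chain, did not pass the filter. Its counts were 4 to 14 in normoxia and 0 to 3 in hyperoxia, and the exact permutation p of 0.000583 is the smallest that 1716 splits can give. Cd247, which encodes the CD3 zeta chain shared with NK cell receptors, did not pass the test, at 4.16 CPM ± 1.92 against 2.52 CPM ± 1.82 (edgeR adjusted p = 0.375). Zap70, the kinase that binds the phosphorylated CD3 chains, was untested in the filtered fit, with 1 to 10 counts against 0 to 9 and an exact permutation p of 0.153.

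Of 27 transcription factors and trafficking receptors of T cells, 19 passed the filter, of which 11 were lower, 2 were higher and 6 did not pass the test (median log2 fold change −0.67). With no filter 9 of the 27 were lower and 2 higher. The filtered counts without Hyperoxia replicate 1 were again 11 and 2, although Ms4a6b left the lower genes (edgeR adjusted p = 0.0569) and Cxcr6 joined them (0.0275). S1pr1, a receptor for sphingosine 1-phosphate that lets lymphocytes leave lymphoid organs and is abundant in endothelium, rose from 185 CPM ± 32.6 (SD, n = 7) at 21% O2 to 528 CPM ± 144 (SD, n = 6) at 80% O2, a log2 fold change of 1.51 (SE 0.2, edgeR adjusted p = 8.19e-05). The other gene that rose was Zbtb7b, the factor that sets the helper lineage and is made outside T cells too, with 17.9 CPM ± 6.67 against 31.1 CPM ± 6.19 (log2 fold change 0.79, edgeR adjusted p = 0.025). Satb1, a chromatin organiser of lymphocytes and other cells, was 54.7 CPM ± 2.33 against 28 CPM ± 6.49, without overlap (log2 fold change −0.98, edgeR adjusted p = 0.000346). Foxp3, which defines regulatory T cells, was 9.01 CPM ± 2.1 against 12.3 CPM ± 4.21 and did not pass the test (log2 fold change 0.43, edgeR adjusted p = 0.236). Its annotation overlaps genes on both strands, so its reads may not all be its own.

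For NK cells, 10 genes of a list of 32 receptors, effectors and regulators, 31 of them in the table, passed the filter, of which 4 were lower, 0 were higher and 6 did not pass the test (median log2 fold change −1.05). With no filter 6 of 31 were lower and 1 was higher, Serpinb9b, with 0 to 5 counts in normoxia and 2 to 46 in hyperoxia (log2 fold change 2.92, edgeR adjusted p = 0.00265), named after its values were seen. Without Hyperoxia replicate 1 the filtered list likewise had 6 lower and 1 higher of 13 tested. Ccl5, a chemokine stored in memory T cells and NK cells, fell from 17.9 CPM ± 5.4 (SD, n = 7) at 21% O2 to 3.82 CPM ± 2.75 (SD, n = 6) at 80% O2 without overlap, a log2 fold change of −2.17 (SE 0.42, edgeR adjusted p = 0.00156). Klrd1, which encodes the CD94 receptor chain, was 7.13 CPM ± 2.95 against 2.99 CPM ± 0.875 (log2 fold change −1.28, edgeR adjusted p = 0.00971). Klra4, of the Ly49 receptor family whose close copies may share reads, was 6.43 CPM ± 3.16 against 2.36 CPM ± 1.35 (log2 fold change −1.49, edgeR adjusted p = 0.0162). Klra8, of the same Ly49 family, did not pass the filter, with 7 to 22 counts in normoxia and 0 to 6 in hyperoxia (exact permutation p = 0.00117), and the fit without a filter gave a log2 fold change of −2.69 (edgeR adjusted p = 0.00209). It is named after its values were seen. Ncr1, the NKp46 receptor, had 0 to 10 counts against 0 to 2 (exact permutation p = 0.135), and Gzmb, granzyme B of NK cells and cytotoxic T cells, had 1 to 8 against 0 to 6 (exact permutation p = 0.126). Klrb1c, the NK1.1 antigen, was 5.06 CPM ± 2.47 against 2.42 CPM ± 2.18, with an edgeR adjusted p of 0.135, and of 0.046 without Hyperoxia replicate 1.

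**Figure D4:**
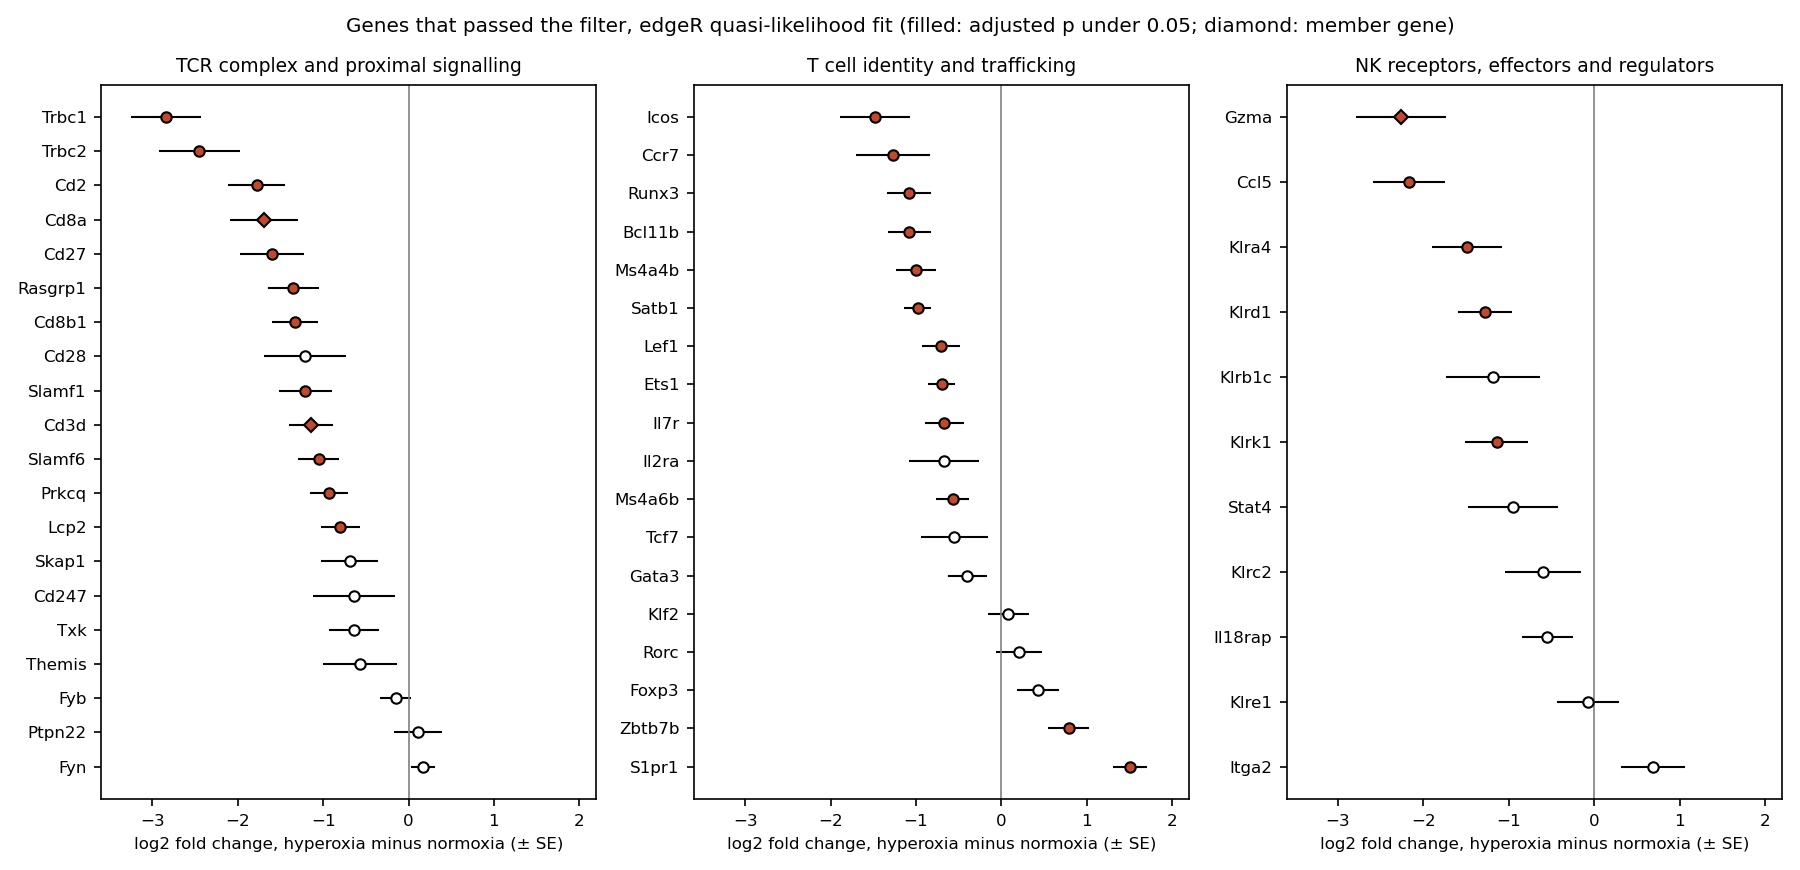
Log2 fold change (hyperoxia minus normoxia) ± SE for the genes of 3 lists that passed the filter, in edgeR's quasi-likelihood fit, with member genes as diamonds and filled points for an adjusted p under 0.05. In the second panel 1 gene is not shown. Trbc1 is the lowest of the first panel at −2.84, and S1pr1 is the highest of the second at 1.51.

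Ligands that recruit or sustain lymphocytes formed a list of 26 genes, with their receptors, of which 13 passed the filter, 3 were lower and 1 was higher (median log2 fold change −0.4). With no filter 2 were lower and 1 was higher of 25, against 1190 lower and 1447 higher of all 19718 genes. Without Hyperoxia replicate 1 the filtered list had 4 lower, with Cxcl12, a chemokine for lymphocytes, at a log2 fold change of −0.54 (edgeR adjusted p = 0.00823, against 0.11 with all libraries). Cxcl16, the ligand of the chemokine receptor Cxcr6 of T cells, rose from 97.5 CPM ± 9.86 (SD, n = 7) at 21% O2 to 201 CPM ± 50.4 (SD, n = 6) at 80% O2 without overlap, a log2 fold change of 1.04 (SE 0.15, edgeR adjusted p = 0.000187). Zmynd15 overlaps it on the other strand. Cx3cl1, a membrane-bound chemokine for NK cells, T cells and monocytes, was 13.6 CPM ± 5.52 against 5.24 CPM ± 1.31 (log2 fold change −1.35, edgeR adjusted p = 0.00454). Il33, an epithelial alarmin for innate lymphocytes, was 68.3 CPM ± 12.2 against 37.5 CPM ± 14.4 (log2 fold change −0.86, edgeR adjusted p = 0.0156). Il15, a cytokine that NK cells and memory CD8 T cells need and a ligand of Il2rb, had 2 to 12 counts against 0 to 3. Its exact permutation p was 0.00816, and the fit without a filter gave a log2 fold change of −1.68 (edgeR adjusted p = 0.0525).

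Transcripts of other leukocytes moved beside those of the members, and their part in these results was not tested. Of 12 pan-leukocyte genes 9 were lower and 0 higher, and their summed level was 574 to 736 CPM in normoxia and 257 to 399 CPM in hyperoxia. The smallest adjusted p values of this list were those of Cd37 (log2 fold change −2.11), Itgal (−2.22) and Cd48 (−1.77), all of which T cells also express. Of 8 B cell genes tested 6 were lower and 0 higher, with a summed level of 388 to 438 CPM in normoxia and 188 to 360 CPM in hyperoxia. Ebf1 gave the largest part of this sum, at a mean of 172 CPM in normoxia against 116 CPM in hyperoxia. The B cell receptor gene Cd79b had a log2 fold change of −2.28 (SE 0.32, edgeR adjusted p = 0.000133), and the B lineage factor Pax5 of −2.01. Leaving out Hyperoxia replicate 1 gave 7 lower B cell genes, with Cd22 joining them (log2 fold change −1.03, edgeR adjusted p = 0.00038). Of 7 dendritic cell genes 5 were lower and 0 higher, at a summed 113 to 165 CPM against 55.7 to 85.2 CPM, led by Clec9a (−1.29), Cd209a (−1.46) and Itgax (−1.1). In limma-voom 4 of these 7 were lower, and in edgeR with no filter 3 were.

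Of 12 macrophage and monocyte genes 3 were lower, 1 was higher and 8 did not pass the test, with summed levels of 561 to 763 CPM and 559 to 907 CPM. Ear2 (log2 fold change −2.04) and Ccr2 (−0.85) fell and Mrc1 rose (0.72). With Hyperoxia replicate 1 left out, 4 were lower and 2 higher, against 1699 lower and 1934 higher of all 12752 genes tested. Csf1r, the receptor that macrophages need to survive, then had a log2 fold change of −0.75 (edgeR adjusted p = 0.000294, against 0.459 with all libraries), and Chil3, a chitinase-like protein of alveolar macrophages, had 1.02 (edgeR adjusted p = 0.000519, against 0.235). Of 4 neutrophil genes tested 0 passed in either direction in edgeR, at an adjusted or an unadjusted p under 0.05, and 0 passed in DESeq2 or limma. The list of group 2 innate lymphoid cell genes had 1 lower, Hs3st1 (−1.83), and 1 higher, Areg (3.06), of 4 tested. With no filter Calca was also higher (log2 fold change 2.92, edgeR adjusted p = 0.00451). Areg encodes the growth factor amphiregulin and is made by many cell types, and the cytokine genes Il5 and Il13 of that list did not pass the filter. Of 9 cell cycle genes tested 0 passed in edgeR with all libraries, 2 were lower at an unadjusted p under 0.05, and 1 was lower in each of DESeq2 and both limma fits. Mcm5 was lower without Hyperoxia replicate 1 (log2 fold change −0.82, edgeR adjusted p = 0.0173). In the thymocyte list the recombination genes Rag1, Rag2 and Dntt were at or near 0, with at most 2 counts in any library, and Ptcra had at most 6. Arpp21 had 1 to 12 counts, and Tox, which is also made by mature lymphocytes, had 10 to 33 counts in normoxia and 19 to 56 in hyperoxia and did not pass the test (log2 fold change 0.64, edgeR adjusted p = 0.0974). Cd1d1, which presents lipids to NKT cells, was lower in the filtered edgeR fit (log2 fold change −1.62, adjusted p = 0.047) but not with no filter (adjusted p = 0.065), and limma-voom called 0 genes of the list.

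Candidates were 10099 genes whose mean log2 CPM was 3 or more. The genes nearest to the members were found by correlation with the members' mean log2 CPM over 13 libraries, after each group's mean was removed. For the T cell members these were Cstf1 (r = 0.805), P3h3 (0.796), 3110082I17Rik (0.794), Cpt1a (0.775) and Bpgm (0.759). For the cytotoxic members they were Drg1 (0.918), Stat2 (0.868), Clasp2 (0.863), Hspa2 (0.859) and Irgm2 (0.853). None of these genes is in a lymphocyte list used here. The values are given as a description with no test, since the points share library depth and the highest of many candidates were taken.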

How the data were processed

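Lung RNA was measured in 13 libraries, 1 per labelled sample. The labels do not say that each came from a separate mouse, so p-values measure the spread between these samples. The authors pseudoaligned the Quant-seq reads with kallisto and deposited whole-number counts per gene symbol, which were used here. They also deposited log10 values, which equal log10 of CPM plus 1 (largest difference 4.4e-16) and were used in an alternative. The submitters' notes name kallisto, mm10 and limma 3.54.2. The annotation and the strand setting are not given in the sources used here, so overlapping genes cannot be told apart. No 2 libraries of a group were duplicates.

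Counts were scaled by TMM, filtered with filterByExpr at its defaults and tested by the quasi-likelihood F test of edgeR 4.0.16 under R 4.3.3, with Benjamini-Hochberg adjustment over 12496 genes and a threshold of 0.05. Standard errors were derived from the fold change and the F statistic. Log2 CPM used a prior count of 2. Single genes were also tested by a two-sided exact permutation test of mean CPM over all 1716 splits, whose smallest p is 0.000583. On simulated counts of 12331 genes, edgeR recovered 196 of 200 changed genes, and 3.92% of its calls were false. The changed genes were drawn at levels above those of most members, so recovery near the floor was not measured. Alternatives were DESeq2 1.42.0, limma 3.58.1 on voom and on deposited log10 values, other scalings and filters, a replicate block, letter sets and leaving out each library. Gene loci were read from GENCODE vM21 (GRCm38).

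The members and lists were chosen with earlier results of these data known. Genes named are the 10 members, the 3 with the smallest adjusted p in each list, the genes that define a named cell type, and the 5 nearest by correlation. Of these, 2 genes are not reported here.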

Additional observations from a re-analysis of the deposited data

Results flagged for a closer look

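In each group the highest and the lowest library of each member were compared with the nearest other library by Dixon's ratio of that gap to the group's range, and 3 of 20 member and group combinations exceeded the 95% critical value. Chance gives about 1 in 20. Cd3e in Hyperoxia replicate 4 had a ratio of 0.719, at 1.34 CPM with the next library at 0.376 CPM. Cd3d in Hyperoxia replicate 1 had a ratio of 0.674, at 18.7 CPM with the next at 10.5 CPM, in the library that also stands apart from the other 12 over all genes. Nkg7 in Hyperoxia replicate 2 had a ratio of 0.653, at 1.88 CPM with the next at 0.652 CPM. Each of the 3 was the highest of its group, and the Cd3e and Nkg7 values rest on 5 counts.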

How the results depend on the processing

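The number of T cell members called lower was 2 in the filtered fit. It was 3 with no filter, and also 3 with no filter and without Hyperoxia replicate 1. It was 1 with at least 10 counts required in every library, 1 within libraries B to M, and 1 where a log2 fold change beyond 1.5 was also required. For the cytotoxic members the number was 1. It became 2 with no filter and 2 with no filter and without Hyperoxia replicate 1 (an alternative added after seeing the data), and 0 with at least 10 counts in every library and within libraries B to M. Leaving out each library in turn gave 2 to 2 T cell members lower, 1 to 1 cytotoxic members lower and 0 to 0 higher in either list. Il2rb turned positive without Normoxia replicate 3, with a log2 fold change of 0.39 and a CPM difference of 0.152 (ranges over the libraries left out −0.66 to 0.39 and −0.355 to 0.152, added after seeing the data), and the cause was not tested. Over all genes tested the median log2 fold change was −0.03, and it was −0.16 for limma on the deposited log values and −0.10 with library size alone, shifts smaller than those of the members called. Of all genes called, 52.3% were higher, against 37.8% and 42.7% under these settings. Replicate numbers are shared between the groups, but the samples with the same number did not deviate together (correlations of −0.325 to 0.272, 1 of 6 over 0.1, and 0 hyperoxic libraries nearest to their own number). A fit with the replicate number as a block used replicates 1 to 6, so Normoxia replicate 7 was left out. That fit called the same 3 members, with Cd3d at −1.16, Cd8a at −1.78 and Gzma at −2.72 (edgeR adjusted p = 0.0291, 0.0375 and 0.0262). The counts of 2, 0, 1 and 0 members stayed as they were. Of 12358 genes 588 were lower and 703 higher, compared with 1346 and 1473 of 12496 in the main fit of all 13 libraries. Depth limits Cd3e, Cd4, Prf1 and Il2rb most, since each was at or under 3 counts in 8 or 9 of 13 libraries.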
